A study of Homo sapiens with 6 samples.

Results

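The genes described here are the inhibitors of cyclin-dependent kinases (CDKs), which comprise the INK4 genes CDKN2A, CDKN2B, CDKN2C and CDKN2D and the CIP genes CDKN1A, CDKN1B and CDKN1C. They were taken by symbol from the deposited expression table, and these 7 were found among 63129 listed genes, each on a single row. The study profiled poly(A) RNA from ERRAS cells held in mitosis and asked how oncogenic Ras changes dividing cells before they become senescent. ERRAS cells are early passage IMR90 human lung fibroblasts stably expressing RasV12 in a tamoxifen-inducible form (ER:RAS). The 3 control libraries came from uninduced cells, and the 3 Ras-induced libraries from cells in which RasV12 had been induced for 4 days. The sample labels give 100 nM tamoxifen, whereas the study's methods name 4OHT and give the dose by weight per volume. All 6 libraries share the transgene, G418 selection, low oxygen and 1 µM DME, which blocks the motor protein Eg5 so that spindles stay monopolar. Rounded, unattached cells were collected by washout at a mitotic index over 90%. The RasV12 construct was delivered by retrovirus into a single fibroblast line, so its level was not that of an endogenous allele. Tamoxifen-treated cells without the transgene were not analysed here.

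INK4 proteins bind the kinases CDK4 and CDK6 and keep D-type cyclins from activating them, so that RB stays unphosphorylated and E2F target genes stay off. CIP proteins bind cyclin-CDK complexes more broadly, including those of CDK2. In fibroblasts, CDKN2A, CDKN2B and CDKN1A are the inhibitors best known for enforcing the arrest of senescence, while CDKN1B and CDKN2C are known from quiescence and differentiation.

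Levels are given in FPKM, a measure of sequenced fragments that takes out transcript length and library size. The deposited values are not read counts, so absolute depth cannot be read from them. The steps between low values gave depths relative to the control 1 library of 0.950 and 1.17 for control 2 and 3, and 1.13, 0.848 and 0.971 for Ras-induced 1, 2 and 3. Differences were tested with limma on log2(FPKM + 1), a scale that compresses differences between low values, and a gene is called altered when its p, adjusted by Benjamini-Hochberg over the 13993 genes averaging 1 FPKM or more, was at most 0.05. All 7 inhibitors passed that minimum, CDKN1C with control values of 1.01, 1.57 and 1.27 FPKM. The sequencing experiment is described as having been repeated independently 3 times, but the labels do not say which libraries were prepared together, so p-values measure the spread between these libraries, part of which may be technical. With 3 libraries against 3, an exact permutation test of a single gene cannot go below 0.1, and none is given.

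In Ras-induced mitotic cells CDKN2A, CDKN2B and CDKN1A rose, CDKN2C and CDKN1B fell, and CDKN2D and CDKN1C did not pass the test. CDKN1A passed narrowly (adjusted p = 0.0496 from limma) and kept its call in 4 of 13 alternative analyses, whereas each of the other altered inhibitors kept it in all 13. Thus 5 of the 7 inhibitors were altered, against 16.7% of all tested genes. Of the altered inhibitors 3 were higher, against 11.0% of all tested genes, and 2 were lower, against 5.67%. These shares depend on the scaling. Under quantile normalization and upper-quartile scaling CDKN1A was not altered, which left 2 higher and 2 lower inhibitors, and of all tested genes 1044 were then higher and 1109 lower, or 921 and 1101, respectively, against 1543 and 793 in the FPKM as deposited. The 3 Ras-induced values lay on one side of the 3 control values for the same 5 genes, a separation found for 39.9% of all tested genes. Over all 13993 genes the median difference was 0.10 on the log2 scale in the FPKM as deposited. RNA was measured in bulk, so a rise in every cell and a strong rise in some of them cannot be told apart, nor can fewer expressing cells and less RNA per cell.

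**Figure D1:**
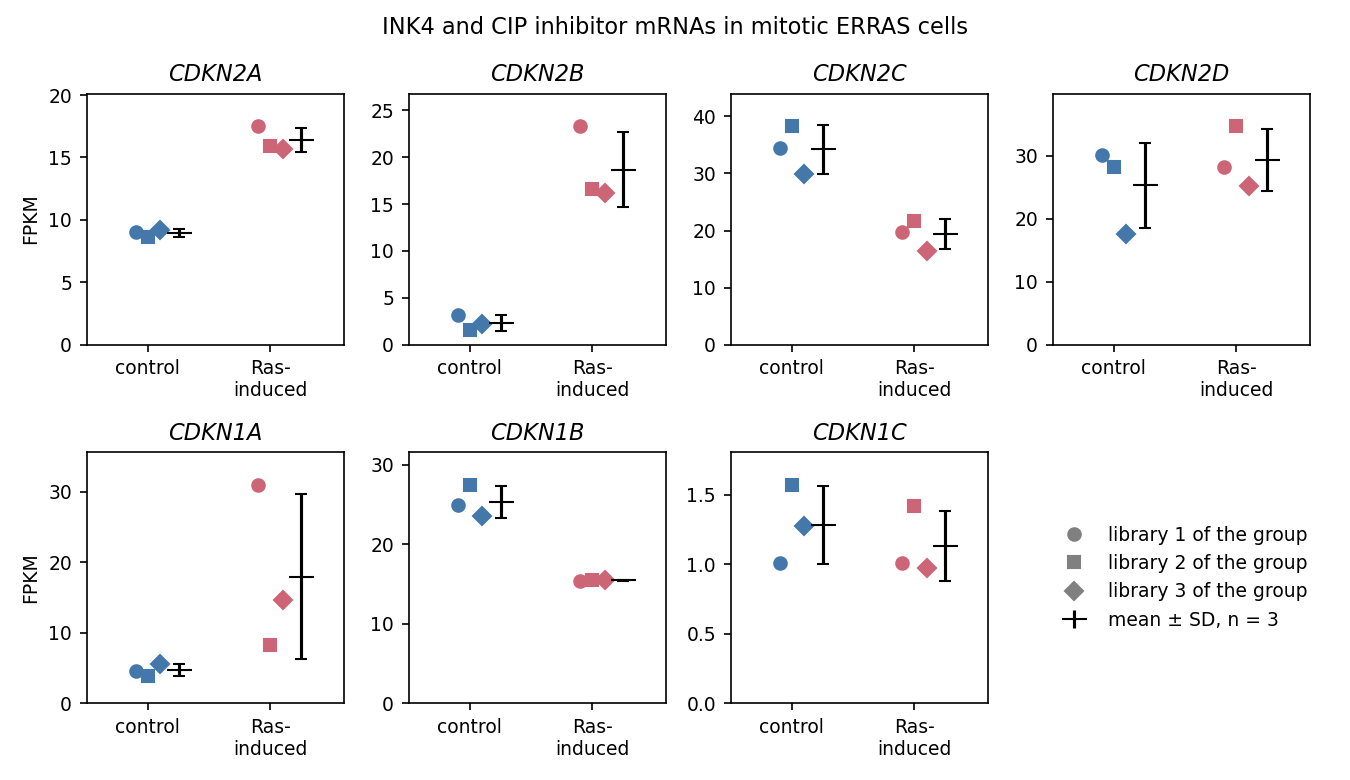
FPKM of each inhibitor in the 3 control and 3 Ras-induced mitotic libraries, with the mean and SD of each group beside the points (n = 3). CDKN2B lies between 1.59 and 3.18 FPKM in control and between 16.1 and 23.3 FPKM in Ras-induced libraries, whereas the groups of CDKN2D and CDKN1C overlap.

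Among the INK4 genes, CDKN2B encodes p15INK4b, an inhibitor of CDK4 and CDK6 that is also known as a target of TGF-β signaling. It lies on chromosome 9 of GRCh37 from 22002902 to 22009304, on the minus strand (ENSG00000147883). Its levels were 3.18, 1.59 and 2.15 FPKM in control and 23.3, 16.6 and 16.1 FPKM in Ras-induced mitotic cells. Every Ras-induced library was above every control library, and Ras-induced 1 was the highest. The control mean was 2.31 ± 0.809 FPKM (SD, n = 3) and the Ras-induced mean 18.7 ± 4.01 FPKM (SD, n = 3), which was 8.09 times as high. On the log2(FPKM + 1) scale the rise was 2.58 (SE 0.22, limma adjusted p = 0.00212), the largest among the 7 inhibitors. CDKN2B moved from the 16.6th to the 59.2nd mean percentile of tested genes. The annotated span of an antisense gene, CDKN2B-AS1, covers CDKN2B. The library kit does not preserve strand, so strand cannot assign reads where exons of the 2 genes coincide. The overlap was read from the gene ends, and the exons were not compared. CDKN2B-AS1 was listed at 0.477, 0.435 and 0.463 FPKM in control and at 0.840, 0.841 and 0.887 FPKM in Ras-induced cells. These values do not overlap, but their mean is under 1 FPKM and the gene was not tested among the 13993. When every gene above 0 was tested, its adjusted p was 0.0725 from limma (log2 fold change 0.35).

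CDKN2A lies 14.0 kb from CDKN2B between their annotated starts, on the same strand, from 21967751 to 21995300 (ENSG00000147889). It encodes p16INK4a, which inhibits CDK4 and CDK6, and from another first exon p14ARF, a protein of unrelated sequence. The table gives 1 value for the gene, so the share of each transcript cannot be read from it. CDKN2B-AS1 begins at 21994138, so it overlaps the annotated CDKN2A gene only at its p14ARF end. The limit on strand given for CDKN2B applies to that part alone. CDKN2A measured 9.05, 8.61 and 9.20 FPKM in control and 17.5, 16.0 and 15.7 FPKM in Ras-induced mitotic cells. The libraries of each group lay close together and the groups were separate. The control mean was 8.95 ± 0.306 FPKM (SD, n = 3) and the Ras-induced mean 16.4 ± 0.979 FPKM (SD, n = 3), which was 1.83 times as high. The gene rose by 0.80 on the log2 scale (SE 0.09, limma adjusted p = 0.00368). The ratio of CDKN2B to CDKN2A was 0.352, 0.184 and 0.234 in control and 1.33, 1.04 and 1.03 in Ras-induced libraries. Hence CDKN2B was the scarcer of the pair in each control library and slightly the more abundant in each Ras-induced library. For Ras-induced 2 and 3 the excess was small against the spread of either gene.

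CDKN2C encodes p18INK4c, a further inhibitor of CDK4 and CDK6, and lies on chromosome 1 from 51426417 to 51440306 (ENSG00000123080). Its levels were 34.5, 38.3 and 29.8 FPKM in control and 19.7, 21.8 and 16.5 FPKM in Ras-induced mitotic cells. Thus CDKN2C went the other way, and each Ras-induced library was below each control library. The control mean was 34.2 ± 4.22 FPKM (SD, n = 3) and the Ras-induced mean 19.3 ± 2.65 FPKM (SD, n = 3), and the gene fell by 0.79 on the log2 scale (SE 0.13, limma adjusted p = 0.0127). CDKN2D, which encodes p19INK4d and lies on chromosome 19 from 10677136 to 10679735 (ENSG00000129355), measured 30.1, 28.2 and 17.6 FPKM in control and 28.2, 34.7 and 25.1 FPKM in Ras-induced cells. The groups overlapped, and control 3 was the lowest library. The log2 fold change was 0.23 with a 95% interval from -0.29 to 0.75 (adjusted p = 0.496 from limma), and without control 3 it was -0.00.

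In control mitotic cells the order of the INK4 levels, which FPKM scales for length, was CDKN2C, CDKN2D, CDKN2A and CDKN2B. CDKN2C and CDKN2D overlapped there, and the other steps exceeded the spread of the libraries. In Ras-induced cells CDKN2D was the highest in each library. CDKN2C, CDKN2B and CDKN2A, at means of 19.3, 18.7 and 16.4 FPKM, overlapped and did not differ beyond their spread. The summed INK4 level was 76.8, 76.6 and 58.8 FPKM in control and 88.7, 89.0 and 73.4 FPKM in Ras-induced libraries, and these ranges overlapped. CDKN2A and CDKN2B together made up 15.9%, 13.3% and 19.3% of that sum in control and 46.0%, 36.6% and 43.3% in Ras-induced libraries. CDKN2C made up 48.5 ± 3.18% (SD, n = 3) in control and 23.1 ± 1.21% (SD, n = 3) in Ras-induced cells. The share of CDKN2D was 35.3 ± 4.81% (SD, n = 3) and 35.0 ± 3.67% (SD, n = 3). The makeup of the INK4 family thus differed between the groups while its summed level overlapped.

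**Figure D2:**
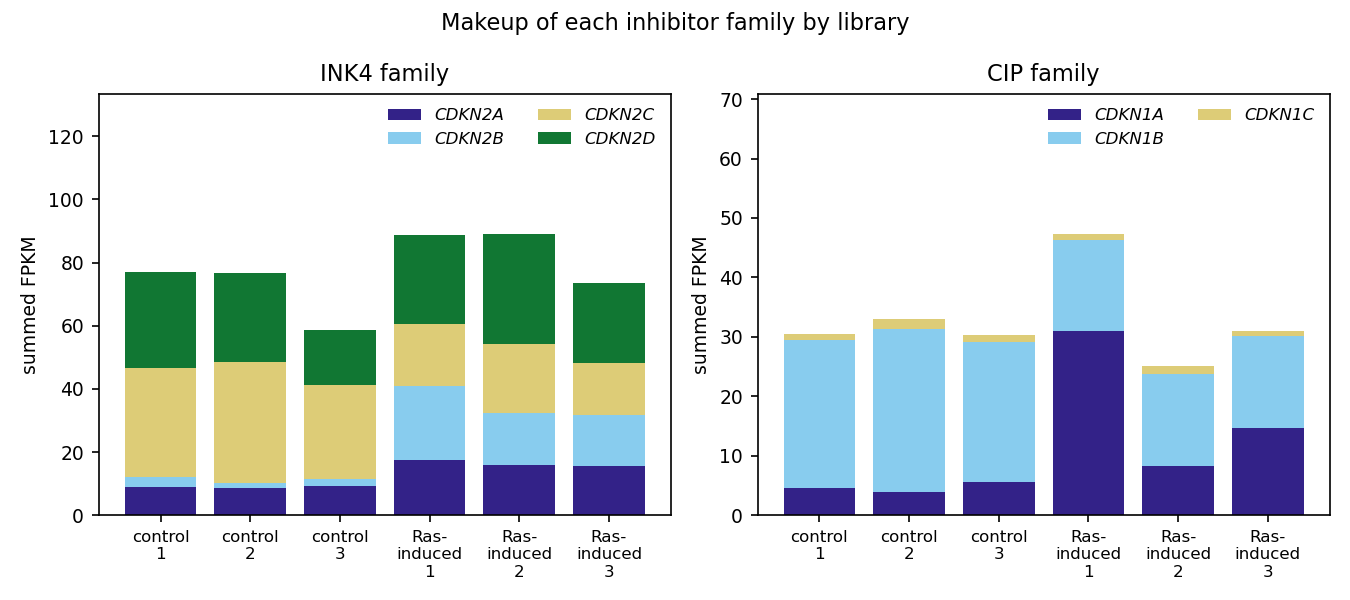
Summed FPKM of the INK4 genes (left) and the CIP genes (right) in each library, stacked by gene. CDKN2A and CDKN2B fill 13.3% to 19.3% of the INK4 bar in control and 36.6% to 46.0% in Ras-induced libraries, and CDKN1A fills 11.9% to 18.3% and 32.7% to 65.5% of the CIP bar.

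Of the CIP genes, CDKN1A encodes p21, which inhibits cyclin-CDK2 complexes, binds PCNA and is a widely used marker of cell-cycle arrest. It lies on chromosome 6 from 36644237 to 36655114 (ENSG00000124762). CDKN1A measured 4.58, 3.91 and 5.54 FPKM in control and 31.0, 8.24 and 14.6 FPKM in Ras-induced mitotic cells. The groups did not overlap, but the Ras-induced libraries were far apart, and Ras-induced 2, the lowest of them, was also the library of lowest relative depth (0.848). The part of depth in that value was not tested. The means were 4.68 ± 0.822 FPKM (SD, n = 3) and 17.9 ± 11.7 FPKM (SD, n = 3). The log2 fold change was 1.56, with a standard error of 0.42 and a 95% interval from 0.56 to 2.57. The adjusted p was 0.0496 from limma, and the call was kept in 4 of 13 alternative analyses, over which the adjusted p ranged from 0.0239 to 0.132. Without Ras-induced 2 the log2 fold change was 1.99 and the adjusted p 0.0239, and without Ras-induced 1 they were 1.09 and 0.0618, which ended the call. Leaving out any of the other libraries also ended it (adjusted p = 0.120, 0.132 and 0.0826 without control 1, 2 and 3, and 0.117 without Ras-induced 3, from limma), as did quantile normalization (0.0576), upper-quartile scaling (0.0671), testing every gene above 0 (0.130) and limma without a trend (0.0642). CDKN1A was higher than in any control library in 3 of 3 Ras-induced libraries.

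CDKN1B encodes p27, a CDK inhibitor of quiescent cells that is controlled largely by protein degradation, and lies on chromosome 12 from 12838432 to 12875303 (ENSG00000111276). Its levels were 25.0, 27.5 and 23.5 FPKM in control and 15.3, 15.5 and 15.5 FPKM in Ras-induced mitotic cells. The Ras-induced libraries were nearly identical and all lay under the controls. Control libraries averaged 25.3 ± 1.99 FPKM (SD, n = 3) and Ras-induced libraries 15.4 ± 0.111 FPKM (SD, n = 3), and the gene fell by 0.68 on the log2 scale (SE 0.08, limma adjusted p = 0.00545). CDKN1C encodes p57, a growth inhibitor expressed from the maternal allele, and lies on chromosome 11 from 2904443 to 2907005 (ENSG00000129757). It was low in both groups, with Ras-induced values of 1.00, 1.42 and 0.970 FPKM that overlapped the control values given above. Its log2 fold change was -0.10 with a 95% interval from -0.57 to 0.37 (adjusted p = 0.760 from limma).

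The order of the CIP levels in control cells was CDKN1B, CDKN1A and CDKN1C in each library. The ratio of CDKN1A to CDKN1B was 0.184, 0.142 and 0.235 in control and 2.02, 0.531 and 0.944 in Ras-induced libraries. CDKN1A therefore exceeded CDKN1B only in Ras-induced 1, and the order of the pair in Ras-induced cells was not settled by these libraries. The summed CIP level was 30.5, 32.9 and 30.4 FPKM in control and 47.3, 25.2 and 31.1 FPKM in Ras-induced libraries, which overlapped. CDKN1A made up 15.0 ± 3.20% of that sum (SD, n = 3) in control and 48.4 ± 16.4% (SD, n = 3) in Ras-induced cells.

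**Figure D3:**
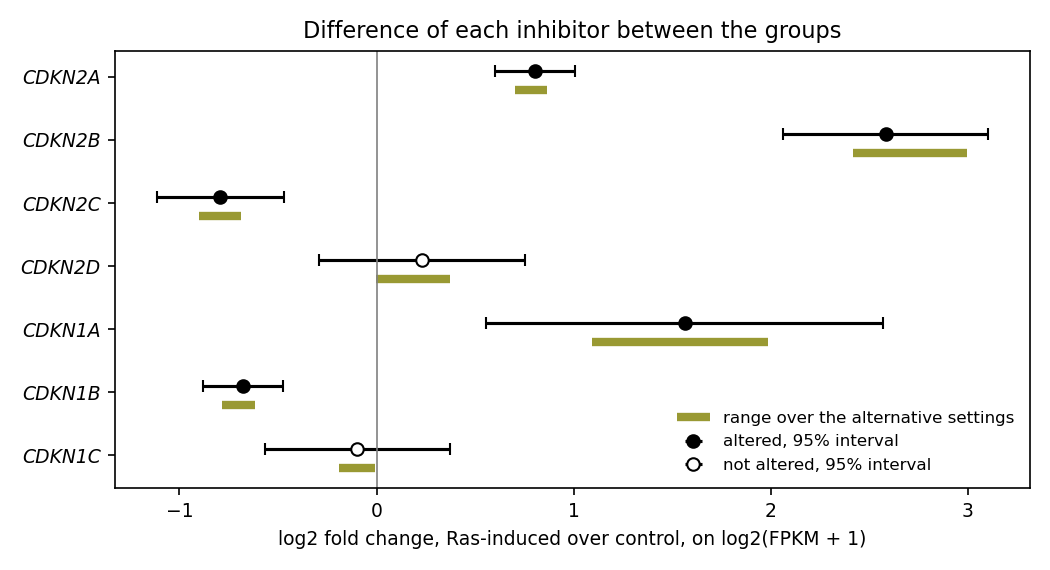
Log2 fold change of each inhibitor, Ras-induced over control mitotic cells, on the log2(FPKM + 1) scale, with its 95% interval from limma (points) and the range of the estimate over the alternative analyses (bars). Filled points are altered genes, and the widest interval, that of CDKN1A, runs from 0.56 to 2.57.

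RefSeq promoters are shown for the inhibitors that rose and for CDKN1B, which fell. Those of CDKN2C, which also fell, and of CDKN2D are described without their sequence, since a window of CDKN2C consists of 250 UTR bases and that of CDKN2D holds 80. A RefSeq table (GRCh38.p14) held promoters of 6 of the 7 inhibitors, and CDKN1C was the other. Each sequence is the 250 bases before an annotated start, written 5′ to 3′ on the strand of the gene, and each matched GRCh37 exactly and once. The positions are chr9:22009305-22009554 (minus strand) for CDKN2B, chr9:21974857-21975106 (minus strand) for the p16INK4a start of CDKN2A, chr9:21995324-21995573 (minus strand) for its p14ARF start, chr6:36646241-36646490 (plus strand) for CDKN1A and chr12:12870052-12870301 (plus strand) for CDKN1B. By GENCODE 44 lifted to GRCh37, the windows of CDKN2B, CDKN1B and the p14ARF start hold no UTR base of these genes, that of CDKN1A holds 4 and that of the p16INK4a start 9. The windows of CDKN1A, CDKN1B and the p16INK4a start lie inside the annotated gene, because longer transcripts begin upstream, and overlap 1, 0 and 2 annotated exons of transcripts of these genes. Capitals mark GC boxes, the letters GGGCGG on either strand, which Sp1-family factors are known to bind.
CDKN2B: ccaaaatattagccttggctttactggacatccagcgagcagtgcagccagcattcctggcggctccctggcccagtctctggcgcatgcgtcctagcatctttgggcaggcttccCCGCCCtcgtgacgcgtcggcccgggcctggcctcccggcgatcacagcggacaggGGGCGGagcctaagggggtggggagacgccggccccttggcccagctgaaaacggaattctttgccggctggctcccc
CDKN2A p16INK4a start: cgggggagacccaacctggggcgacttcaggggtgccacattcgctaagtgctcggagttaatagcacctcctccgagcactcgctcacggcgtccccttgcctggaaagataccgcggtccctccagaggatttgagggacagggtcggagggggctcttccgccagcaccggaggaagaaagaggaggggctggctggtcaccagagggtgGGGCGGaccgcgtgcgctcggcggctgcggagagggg
CDKN2A p14ARF start: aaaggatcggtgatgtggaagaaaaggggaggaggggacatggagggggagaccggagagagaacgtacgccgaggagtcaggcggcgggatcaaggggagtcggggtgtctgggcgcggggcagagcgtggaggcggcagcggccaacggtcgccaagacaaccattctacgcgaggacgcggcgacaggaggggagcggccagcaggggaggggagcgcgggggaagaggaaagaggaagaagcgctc
CDKN1A: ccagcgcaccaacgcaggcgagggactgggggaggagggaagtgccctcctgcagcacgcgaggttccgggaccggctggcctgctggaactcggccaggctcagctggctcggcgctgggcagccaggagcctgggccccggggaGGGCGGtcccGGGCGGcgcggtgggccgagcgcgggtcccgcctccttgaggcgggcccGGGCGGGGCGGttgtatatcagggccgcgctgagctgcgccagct
CDKN1B: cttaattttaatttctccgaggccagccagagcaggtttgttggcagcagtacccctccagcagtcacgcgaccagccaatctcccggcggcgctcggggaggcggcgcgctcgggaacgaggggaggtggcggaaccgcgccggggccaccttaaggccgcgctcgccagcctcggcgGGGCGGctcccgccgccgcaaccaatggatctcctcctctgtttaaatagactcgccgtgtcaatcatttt
The CDKN2B window held 2 GC boxes, one on each strand, that of CDKN1A 4, of which 2 share bases, and those of CDKN1B and the p16INK4a start 1 each. The p14ARF start held 0. GC boxes were found in 42.6% of the 35116 promoters of the table, so a match is a common feature and only describes the sequence. Of the other motifs searched on both strands, TGANTCA (AP-1, in 6.6% of promoters) and CACGTG (E-box, 6.3%) had 0 matches in the printed windows. CAGAC (SMAD box, 38.0%) had 1 match, at the p14ARF start. The G+C content of the printed windows ran from 64.4% to 76.4%, against a median of 58.0% over all promoters. The 3 windows of CDKN2C, in order along the gene, held 0, 5 and 1 GC boxes, 1, 0 and 1 E-box matches and 2, 0 and 1 SMAD boxes, at a G+C content of 45.6%, 77.2% and 48.8%, and 0 AP-1 matches. The CDKN2D window held 2 GC boxes and none of the other motifs, at 67.6% G+C. No factor binding was measured here.

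The kinases and cyclins that the inhibitors bind were read next. Of 9 tested CDK and cyclin genes (of 11 listed), 2 were altered (22.2%, against 16.7% of all tested genes), both lower, and the median log2 fold change was -0.19 against 0.10 over all tested genes. CDK6, a target kinase of the INK4 proteins, measured 6.84, 7.86 and 5.66 FPKM in control and 3.09, 2.24 and 2.54 FPKM in Ras-induced cells (log2 fold change -1.10, adjusted p = 0.00788 from limma). Its Ras-induced libraries were all below the controls. CDK4, the other INK4 target, overlapped between the groups, with 99.6, 109.6 and 88.5 FPKM in control and 108.9, 112 and 100.1 FPKM in Ras-induced cells (singled out once its values were known). CCNA2, the cyclin A gene, averaged 165 ± 13.9 FPKM (SD, n = 3) in control cells and 116 ± 3.32 FPKM (SD, n = 3) after Ras induction, and fell by 0.50 on the log2 scale (adjusted p = 0.0125 from limma). The call of CDK6 was kept in 12 of 12 alternative analyses and that of CCNA2 in 11 of 13 (adjusted p up to 0.0545 from limma).

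RB and E2F genes, the downstream arm of the pathway, were altered in 7 of 12 tested cases (58.3% against 16.7% of all tested genes, 13 listed), 3 higher and 4 lower, with a median log2 fold change of -0.26 against 0.10. E2F8 and E2F5 fell by 1.16 and 0.81 on the log2 scale, and E2F6 and E2F7 rose by 0.71 and 0.65 (adjusted p = 0.0167, 0.00552, 0.0125 and 0.0429 from limma). All 4 encode E2F proteins known mainly as repressors, so repressors were among both the higher and the lower genes. The other altered genes, named after their values were seen, were RBL1 and RB1, both lower, and E2F4, which was higher. The calls of E2F7 and E2F4 were lost under quantile normalization and upper-quartile scaling, where 1 gene of the list was higher and 5 were lower, and were kept in only 5 and 2 of 13 alternative analyses. Those of E2F8, E2F5 and E2F6 were kept in 9 of 12, 13 of 13 and 12 of 13. RBL1, which encodes the RB relative p107, had a log2 fold change of -0.60 (adjusted p = 0.0457 from limma), and its call was kept in 5 of 12 alternative analyses. RB1 itself fell from 36.4, 32.1 and 29.6 FPKM to 23.2, 21.6 and 23.6 FPKM, with groups that did not overlap (log2 fold change -0.50, adjusted p = 0.0201 from limma), and its call was kept in 8 of 13.

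Of 12 genes that act in the ubiquitin-dependent removal of p21 and p27, 2 were altered, both lower. This share is that of all tested genes, 16.7%, and the median log2 fold change was -0.01. DTL, the substrate receptor that marks p21 for degradation on chromatin, measured 17.1, 20.2 and 20.7 FPKM in control and 11.8, 12.7 and 11.9 FPKM in Ras-induced cells (log2 fold change -0.62, adjusted p = 0.0106 from limma). PCNA, the sliding clamp on which that reaction takes place, fell from 61.6, 67.5 and 74.4 FPKM to 48.8, 44.6 and 45.6 FPKM (log2 fold change -0.54, adjusted p = 0.0130 from limma). In both genes the groups were separate. The call of DTL was kept in 13 of 13 alternative analyses and that of PCNA in 11 of 13 (adjusted p up to 0.0534 from limma). SKP2, the receptor known for p27, had a log2 fold change of 0.01 and did not pass the test (adjusted p = 0.973 from limma, chosen after its values were seen).

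Among 22 genes for regulators known to act at CDKN promoters 20 were tested and 3 were altered, a share near the 16.7% of all tested genes, with a median log2 fold change of 0.06 that turned to -0.03 under either scaling. The genes called lower numbered 1 here, 5 after quantile normalization and 4 after upper-quartile scaling. The altered genes, JUNB, FOS and FOSL1, encode AP-1 subunits, but JUN, another AP-1 gene of the list, did not pass the test (log2 fold change 0.48, adjusted p = 0.0899 from limma, named after its values were seen). JUNB measured 0.945, 0.795 and 2.06 FPKM in control and 7.75, 3.08 and 4.47 FPKM in Ras-induced cells (log2 fold change 1.40, adjusted p = 0.0355 from limma), but its call was kept in only 7 of 12 alternative analyses (adjusted p from 0.0258 to 0.103 from limma). FOS had a log2 fold change of 0.89 (adjusted p = 0.0101 from limma), and its call was kept in 12 of 12. FOSL1, the most abundant gene of the list, averaged 271 ± 28.5 FPKM (SD, n = 3) in control cells and 119.6 ± 15.7 FPKM (SD, n = 3) after Ras induction, and fell by 1.18 on the log2 scale (adjusted p = 0.00366 from limma). SMAD target genes, read because CDKN2B and CDKN1A are themselves known to respond to TGF-β, were altered in 3 of 11 cases (27.3%, against 16.7% of all tested genes), 1 higher and 2 lower, with a median log2 fold change of -0.11, and 3 were lower under either scaling. ACTA2 and TAGLN, which encode smooth muscle actin and transgelin, fell by 3.20 and 1.86 on the log2 scale (adjusted p = 0.00279 and 0.00486 from limma). BHLHE40, a transcriptional repressor gene, rose by 1.44 (adjusted p = 0.0128 from limma).

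Polycomb complexes are known to silence the CDKN2A and CDKN2B locus through H3K27 methylation. Of 16 tested polycomb and H3K27 demethylase genes (17 listed) 4 were altered (25%, against 16.7% of all tested genes), 3 higher and 1 lower, with a median log2 fold change of 0.17. The higher genes numbered 2 after quantile normalization (CBX8 and PHC2) and 1 after upper-quartile scaling (CBX8). EZH2, the H3K27 methyltransferase gene, measured 56.1, 56.5 and 59.5 FPKM in control and 23.1, 28.4 and 22.7 FPKM in Ras-induced cells (log2 fold change -1.19, adjusted p = 0.00219 from limma). It was the gene with the largest change of the list, and the groups were separate. KDM6B, an H3K27 demethylase gene known to act at CDKN2A, measured 5.05, 4.00 and 4.49 FPKM in control and 8.0, 7.16 and 6.15 FPKM in Ras-induced cells (log2 fold change 0.55, adjusted p = 0.0359 from limma). The call of KDM6B was lost under quantile normalization and upper-quartile scaling (adjusted p = 0.0576 and 0.0648 from limma). CBX8 and PHC2, subunits of polycomb repressive complex, had log2 fold changes of 0.96 and 0.40, and the call of PHC2 was lost under upper-quartile scaling (adjusted p = 0.0629 from limma). The calls of CBX8, PHC2 and KDM6B were kept in only 4 of 11, 6 of 13 and 3 of 13 alternative analyses, and that of EZH2 in 13 of 13. CBX8 reached the minimum of 1 FPKM only through its Ras-induced values (0.708, 0.310 and 0.413 FPKM in control, 1.88, 2.46 and 1.34 FPKM in Ras-induced cells), so its call supports nothing about the list. The counts, share and median of the list given above include CBX8. H3K27 methylation was not measured here.

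**Figure D4:**
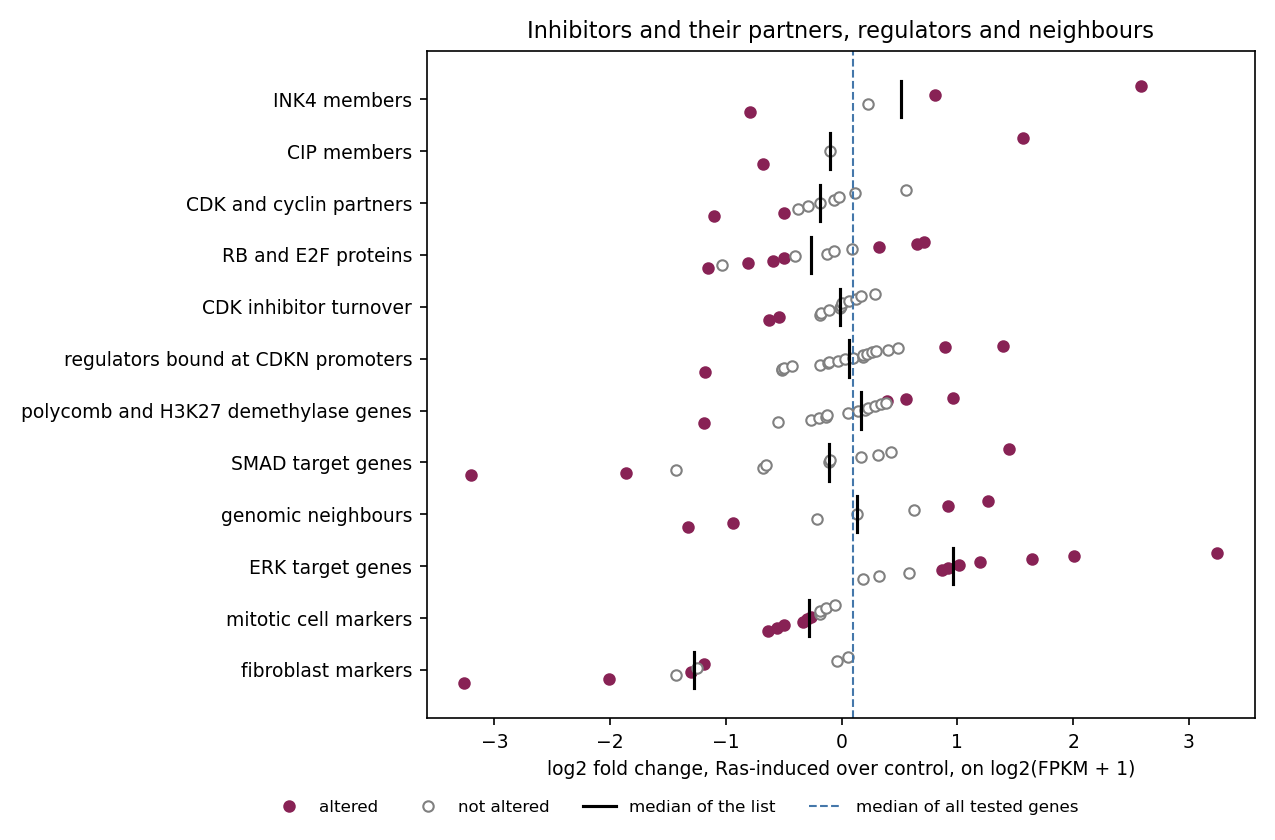
Log2 fold change, Ras-induced over control mitotic cells, of each tested gene of the inhibitor families and of the lists of partners, regulators, neighbours and markers. Filled points are altered genes, black bars are list medians, and the dashed line is the median of all tested genes at 0.10. Genes of a list are spread vertically by rank for legibility.

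Genes beside the inhibitors were read to place each locus. Of 15 listed neighbours 7 were tested and 4 were altered (57.1% against 16.7% of all tested genes), 2 higher and 2 lower, with a median log2 fold change of 0.13, near the 0.10 of all tested genes. Of the genes reaching within 500 kb of the ends of CDKN2B, 3 were tested. All 3 were altered and higher, against 11.0% of all tested genes. They were MTAP, MIR31HG and CDKN2A, the last of which is an inhibitor already counted above. MTAP, the methylthioadenosine phosphorylase gene, starts 206.7 kb from the CDKN2B start and measured 16.6, 17.6 and 19.4 FPKM in control and 31.8, 33.1 and 39.0 FPKM in Ras-induced cells (log2 fold change 0.92, adjusted p = 0.00449 from limma). MIR31HG, a long noncoding RNA gene known to regulate p16INK4a, starts 449.4 kb from it and was named after its values were seen. It measured 4.91, 10.7 and 6.39 FPKM in control and 23.2, 23.7 and 25.7 FPKM in Ras-induced cells (log2 fold change 1.66, adjusted p = 0.00820 from limma). For each of these genes the groups were separate.

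At the other loci the neighbours did not share 1 direction with the inhibitor. In these windows the altered genes are read against the 16.7% of all tested genes. Of 14 tested genes reaching within 500 kb of the ends of CDKN1B 4 were altered, and APOLD1, which starts 40.4 kb downstream of the first annotated start of CDKN1B, measured 5.0, 4.86 and 5.15 FPKM in control and 1.40, 1.53 and 1.23 FPKM in Ras-induced cells (log2 fold change -1.33, adjusted p = 0.00278 from limma). The other altered genes of that window were CREBL2, DDX47 and EMP1, which were higher with log2 fold changes of 0.79, 0.42 and 0.83 (named after their values were seen), though only 2 genes were higher after quantile normalization and 1 after upper-quartile scaling. Of 9 genes near CDKN1A 3 were altered, and these, KCTD20, STK38 and PIM1, were lower with log2 fold changes of -0.82, -0.50 and -0.94 (also named after their values were seen). Near CDKN2C, 0 of 3 genes were altered in the limma test, and 1 had an unadjusted p under 0.05. Beside the inhibitors that did not pass the test, PHLDA2 near CDKN1C rose by 1.26 and SLC44A2 near CDKN2D fell by 0.94 on the log2 scale (adjusted p = 0.00291 and 0.00279 from limma). Altered genes numbered 1 of 8 near CDKN1C and 8 of 34 near CDKN2D, neither far from the share over all genes. The 8 comprised 6 higher and 2 lower genes (4 and 3 after quantile normalization, 5 and 3 after upper-quartile scaling), and ICAM5 changed most, with a log2 fold change of 1.40 (adjusted p = 0.0159 from limma, named after its values were seen).

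For each altered inhibitor, the 3 tested genes of most similar profile were found by the Euclidean distance between log2(FPKM + 1) values centred over the 6 libraries. For CDKN2B they were ANGPTL4, GDF15 and LCE2A, at distances of 0.342, 0.455 and 0.486. LCE2A reached the minimum of 1 FPKM only through its Ras-induced values (0.433, 0 and 0.247 FPKM in control, 8.32, 5.74 and 3.58 FPKM in Ras-induced cells). GDF15, which encodes a stress-induced secreted factor, measured 1.80, 0.566 and 1.62 FPKM in control and 17.4, 13.8 and 13.7 FPKM in Ras-induced cells. For CDKN2A they were ZNF226, ADAMTS12 and CHCHD10, at 0.128, 0.137 and 0.153. The nearest to CDKN2C were PHYHD1, CHAF1B and FLJ00418, at 0.148, 0.170 and 0.170, and CHAF1B, a subunit of the replication-coupled histone chaperone, measured 6.92, 8.20 and 5.92 FPKM in control and 3.29, 4.14 and 2.59 FPKM in Ras-induced cells. For CDKN1B they were SCARA3, C15orf38 and MTSS1, at 0.112, 0.116 and 0.155.

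For CDKN1A the nearest genes were JUNB, MIR210HG and TRIB1, at the larger distances of 0.619, 0.664 and 0.684. MIR210HG measured 8.29, 3.41 and 5.90 FPKM and TRIB1 3.36, 0.824 and 1.64 FPKM in the Ras-induced libraries. TRIB1 too reached 1 FPKM only through these values (0.225, 0.234 and 0.255 FPKM in control), and it did not pass the test (adjusted p = 0.0606 from limma). In all 3 genes, as in CDKN1A, Ras-induced 1 was the highest and Ras-induced 2 the lowest of the Ras-induced libraries. A likeness over 6 libraries that also differ by group describes the values only.

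**Figure D5:**
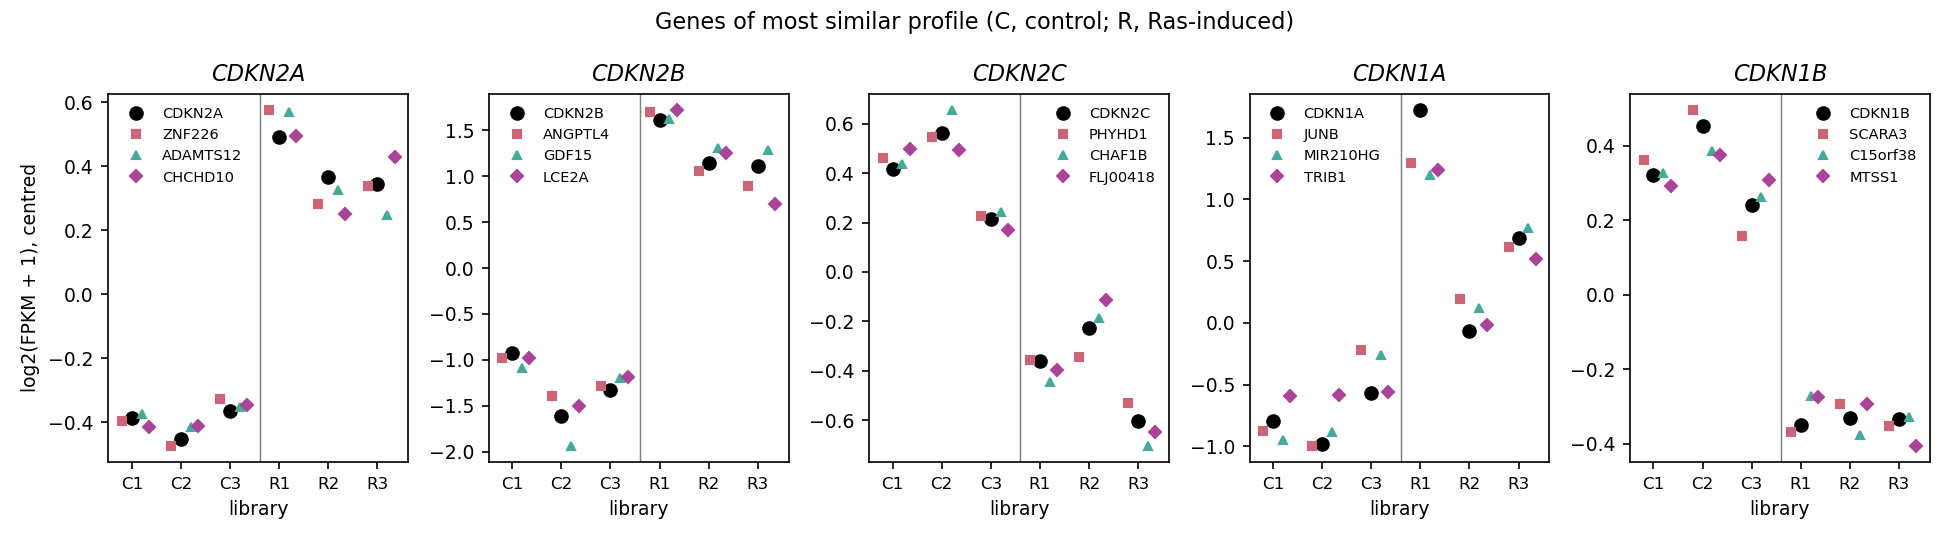
Log2(FPKM + 1), centred on the mean of the 6 libraries, of each altered inhibitor (black) and the 3 genes of most similar profile in the 3 control (C) and 3 Ras-induced (R) libraries. For CDKN1A, Ras-induced 1 stands above Ras-induced 2 and 3 in all 4 genes.

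HRAS and genes that respond to ERK, the kinase downstream of Ras, were also read. The paper describes the construct as a RasV12 fusion that tamoxifen activates, so HRAS mRNA does not measure its activation. HRAS, to which both the endogenous gene and the construct can contribute reads, measured 1174, 1176 and 1140.3 FPKM in control and 1439, 1847 and 1473 FPKM in Ras-induced cells (log2 fold change 0.44, adjusted p = 0.0431 from limma). The groups were separate, but the call was kept in only 4 of 13 alternative analyses (adjusted p from 0.0193 to 0.166). Of 10 ERK target genes 7 were altered, all higher (70%, against 11.0% of all tested genes), with a median log2 fold change of 0.96, and 6 and 5 were altered after quantile normalization and upper-quartile scaling. DUSP6, a phosphatase gene of the feedback on ERK, measured 3.31, 1.92 and 2.23 FPKM in control and 39.8, 21.2 and 37.2 FPKM in Ras-induced cells (log2 fold change 3.24, adjusted p = 0.00198 from limma). EGR1, DUSP4 and SPRY2 rose by 2.00, 1.65 and 1.20 on the log2 scale (adjusted p = 0.00279, 0.00446 and 0.00424 from limma). DUSP4 reached the minimum of 1 FPKM only through its Ras-induced values (0.315, 0.232 and 0.129 FPKM in control, 3.44, 2.40 and 2.72 FPKM in Ras-induced cells), so its call supports nothing about the list, of which 6 of the other 9 genes were altered. The 70%, the median and the counts of 6 and 5 under the scalings include DUSP4. As for CDKN1A, the lowest Ras-induced value of DUSP6 was that of Ras-induced 2, whereas the HRAS value was highest there.

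Both groups were checked for mitotic markers, since CDK inhibitors are read here in dividing cells. All 10 markers were tested, and 6 were altered, all lower (60%, against 5.67% of all tested genes), with a median log2 fold change of -0.28. Their summed level was 1897, 1894 and 1977 FPKM in control and 1545, 1699 and 1663 FPKM in Ras-induced libraries, and CCNB1 was the most abundant gene. TOP2A, CENPE, CENPF and CCNB2 fell by 0.63, 0.56, 0.50 and 0.33 on the log2 scale (adjusted p = 0.0339, 0.0340, 0.0208 and 0.0371 from limma). CDK1, the kinase of mitotic entry, was listed at only 1.56 to 5.93 FPKM and TOP2A at 4.93 to 10.3 FPKM, while CCNB1 ranged from 439.6 to 589 FPKM (CDK1 and CCNB1 were singled out once their values were known). Why the table lists CDK1 and TOP2A so low in mitotic cells is unknown, which also limits what the TOP2A difference shows. The calls of TOP2A, CENPE, CENPF and CCNB2 were kept in 7, 6, 10 and 7 of 13 alternative analyses, and those of the other altered markers, BUB1 and PLK1, in 5 and 3 (the pair named after its values were seen). The part of the mitotic markers in the inhibitors' differences was not tested.

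Of 8 fibroblast markers 4 were altered, all lower (50%, against 5.67% of all tested genes), with a median log2 fold change of -1.28, and 5 and 6 were lower after quantile normalization and upper-quartile scaling. Their sum was 4869, 5524 and 5436 FPKM in control and 3186, 4281 and 3039 FPKM in Ras-induced libraries. DCN, LUM, COL1A2 and THY1 fell by 3.26, 2.01, 1.30 and 1.19 on the log2 scale, and VIM, the most abundant of the list, did not pass the test (log2 fold change 0.06, adjusted p = 0.772 from limma, named after its values were seen). Among the markers of other cells, 3 of 6 epithelial genes were tested and 0 were altered in the limma test, 0 of them at an unadjusted p under 0.05. KRT5, the most abundant of them, measured 8.72, 18.7 and 7.77 FPKM in control and 11.1, 11.7 and 11.9 FPKM in Ras-induced cells. EPCAM, an epithelial adhesion gene, measured 1.05, 0.880 and 1.80 FPKM in control and 0.272, 0.167 and 0.424 FPKM in Ras-induced cells, and these values do not overlap. It averaged under 1 FPKM and was not among the 13993, and when every gene above 0 was tested its adjusted p was 0.0774 from limma (log2 fold change -0.78). CDH1 was at or under 0.224 FPKM in all 6 libraries (EPCAM and CDH1 were chosen after their values were seen). The summed epithelial level was 22.7, 36.5 and 24.3 FPKM in control and 21.9, 23.0 and 25.5 FPKM in Ras-induced libraries.

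Of 6 immune genes, only CD68 was tested, and it did not pass (27.5, 25.2 and 30.7 FPKM in control, 30.5, 33.5 and 35.6 FPKM in Ras-induced cells). CD3E was listed at 0 in all 6 libraries and PTPRC in 5 of them (both chosen after their values were seen). CD68 made up nearly the whole immune sum, which was 27.6, 25.4 and 30.9 FPKM in control and 30.6, 33.7 and 36.1 FPKM in Ras-induced cells. Of 6 endothelial genes only TEK was tested, and it fell from 16.4, 14.4 and 15.0 FPKM to 4.78, 5.29 and 4.72 FPKM (log2 fold change -1.45, adjusted p = 0.00126 from limma). PECAM1, the defining marker of that cell type (also chosen after its values were seen), was listed at 0 in all 6 libraries, and the endothelial sum, 16.6, 14.7 and 15.2 FPKM in control and 4.94, 5.41 and 4.85 FPKM in Ras-induced cells, was nearly all TEK.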

How the data were processed

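Poly(A) RNA of 3 control and 3 Ras-induced mitotic cultures was sequenced from unstranded libraries. The authors trimmed reads with Trim Galore 0.3.0, aligned them to hg19 with TopHat2, calculated FPKM per gene with Cufflinks and deposited one FPKM table. Its columns name group and number but not the sample, so each column served as 1 replicate of its group. A second header line, 18 columns without a name and 120 genes with more than 6 values were left out. The deposited Cuffdiff table holds the authors' own comparison (fold changes, p-values and q-values) and was not used.

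log2(FPKM + 1) of genes averaging 1 FPKM or more was fitted with limma 3.58.1 in R 4.3.3 (trended eBayes, two-sided, no block), and p-values were adjusted by Benjamini-Hochberg over 13993 genes. The method was tested on simulated data without effects of library or scaling, so that test does not bear on such effects. Summaries and figures used Python 3.11.15 with pandas 2.3.3, numpy 2.4.6 and matplotlib 3.10.9. Gene coordinates are from GENCODE 44 lifted to GRCh37 (hg19), a later annotation than the authors used. Some listed genes are not reported here. The inhibitors and gene lists were chosen with earlier results of these data known. Named from each list were its altered genes (at most the 4 of largest absolute log2 fold change), or the most abundant where none was altered, plus HRAS and the genes of most similar profile. Other genes named were chosen after their values were seen. Alternatives were another pseudocount (0.1), no filter or a mean of at least 5 FPKM, quantile and upper-quartile scaling, no trend, a replicate block and each library left out.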

Additional observations from a re-analysis of the deposited data

How the results depend on the processing

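CDKN2A, CDKN2B, CDKN2C and CDKN1B kept direction and call in all 13 alternatives. CDKN1A kept its direction in all 13 and its call in 4, so the number of altered inhibitors was 5 or 4, and 4 to 5 with a library left out. CDKN2D and CDKN1C were not altered in any alternative that tested them, and CDKN1C could not be tested at a mean of at least 5 FPKM. The log2 fold change of CDKN2D ran from -0.0019 without control 3, a reversed sign (adjusted p = 0.995 from limma), to 0.37 without control 1, and the cause was not tested.

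Of all tested genes, 2336 were altered. This number was 1518 when 29362 genes were tested with no filter, and 998 (without Ras-induced 3) to 1956 (without control 3) with a library left out, where fewer libraries were used. It was 1000 without control 2, 1127 without control 1, 1159 without Ras-induced 1 and 1545 without Ras-induced 2. The split by direction, 1543 higher and 793 lower, was 1044 and 1109 after quantile normalization and 921 and 1101 after upper-quartile scaling. Of 43 altered genes of the other lists, 37 remained altered under both scalings, 23 remained so in all alternatives that tested them and 0 changed sign.

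With the column number as a replicate block, 2310 genes and the same count of 5 inhibitors were altered. Deviations of same-numbered libraries correlated at -0.003, 0.043 and 0.048 across genes, against -0.068 to 0.031 for control and Ras-induced libraries of different number. All were small, so the numbers were not taken to pair the cultures. Relative depth ran from 0.848 to 1.17, and without read counts the precision of low values, such as those of CDKN1C, is unknown.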
